A study of Mus musculus with 11 samples.

Results

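The genes described here are 10 genes of the unfolded protein response, the programme that cells switch on when misfolded proteins collect in the endoplasmic reticulum (ER). They were taken by name, with no threshold on their values: Hspa5, Hsp90b1, Calr, Pdia4, Atf4, Xbp1, Ddit3, Trib3, Herpud1 and Dnajb9. All 10 were on the array, with 24 of its 45101 probe sets, and all 10 were among the 12709 genes measured. The tissue was fat around the epididymis, from male C57BL/6 mice that were 3 months old and ate standard chow. Wild-type mice (B1+/+) gave 4 arrays and mice without the kinin B1 receptor (B1-/-) gave 4. The remaining 3 came from fat rescue mice (aP2B1-B1-/-), which also lack the endogenous receptor and carry it again in fat; aP2 is an older name of Fabp4, whose promoter drives transgenes in fat cells and is also used by macrophages. The labels call the arrays of a genotype biological replicates and do not say how many founder lines stand behind the transgene, so p-values measure the spread between these samples.

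In the unfolded protein response, 3 sensors in the ER membrane, encoded by Ern1, Eif2ak3 and Atf6, respond to unfolded protein. The first splices Xbp1 mRNA, the second (PERK) slows translation and lets ATF4 protein accumulate, and the third is cut to release a transcription factor. Their combined output is more chaperone, more disposal of misfolded protein and, if stress lasts, the pro-apoptotic factor CHOP, which Ddit3 encodes. The response matters most in cells that secrete much protein, and fat cells secrete hormones, complement factors and serpins. The 3 genotypes are compared beside the secreted serpins Serpina1b and Serpina3n, whose signals were higher in both lines without the endogenous receptor. Both serpin genes lie on chromosome 12, as does Bdkrb1, the receptor gene that both lines lack. What this shared chromosome adds to the serpin signals was not tested.

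Several of these genes carry the ER stress element in their promoters, the sequence through which ATF6 and XBP1 act. Its exact copies near the start sites are shown as a description. RefSeq promoter windows of the mouse build GRCm38.p6, from 250 bases before to 50 after the start site, were found for all 10 members. The element searched was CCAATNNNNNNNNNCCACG on both strands, together with its variant (ATTGG, any base, then CCACG) and the composite element TGATGNAA bound by C/EBP and ATF factors, and no matches overlapped each other. The first occurred in 3 of the 10 members and in 0.119% of 32851 promoter windows, the variant in 1 member and 0.0365% of windows, and the composite element in 2 members and 3.97% of windows. The matches, in capitals, read 5′ to 3′ on the strand that carries the motif, lie at chr2:34772025-34772043 for Hspa5 (same strand as the gene), chr10:86705638-86705656 (same strand) and chr10:86705533-86705551 (opposite strand) for Hsp90b1, chr8:84847075-84847093 for Calr (opposite strand), chr8:94386377-94386387 for Herpud1 (same strand) and chr2:152344039-152344046 for Trib3 (opposite strand). Herpud1 also holds the composite element, at chr8:94386317-94386324 (opposite strand).
Hspa5: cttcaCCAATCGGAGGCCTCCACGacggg
Hsp90b1, upstream copy: caagcCCAATCGCAAGGAGCCACGcttcg
Hsp90b1, copy nearer the start: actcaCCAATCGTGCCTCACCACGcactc
Calr: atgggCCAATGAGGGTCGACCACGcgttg
Herpud1, variant element: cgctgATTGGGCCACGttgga
Herpud1, composite element: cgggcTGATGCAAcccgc
Trib3, composite element: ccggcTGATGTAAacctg
Those of Pdia4, Atf4, Xbp1, Ddit3 and Dnajb9 held no match to these letters. Matches are descriptions of sequence and not measured binding, and a member without a match may still be a direct target of the response.

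None of the 10 ER stress genes differed between the genotypes beyond the spread between arrays. Both serpins, in contrast, were higher in every array of both lines than in any wild-type array, and overlapped between the lines. The counts that follow are of the 10 members. In knockout against wild type 0 of 10 passed an adjusted p of 0.05 with limma, where 0.0393% of all genes did. The count was also 0 of 10 for fat rescue against wild type (0.0157% of all genes) and 0 of 10 between the lines (0% of all genes). At an unadjusted p under 0.05 the members again numbered 0 in each comparison, against 7.3%, 8.09% and 3.81% of all genes. The median log2 difference of the members was 0.04 in knockout and 0.05 in fat rescue against wild type, beside 0.02 and 0.03 over all genes, and -0.02 in fat rescue against knockout, beside 0.01. The arrays of any pair of genotypes overlapped in every member when the probe set that represents the gene was read, whereas 3.84%, 9.24% and 4.93% of all genes did not overlap in the 3 comparisons (1.98%, 5.74% and 2.84% with the first-named genotype higher). The smallest p of a moderated F test over the 3 genotypes was 0.185, for Trib3 (adjusted p = 0.798). Fat rescue and knockout are each set against the same wild-type arrays, so their differences from wild type are not independent.

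**Figure D1:**
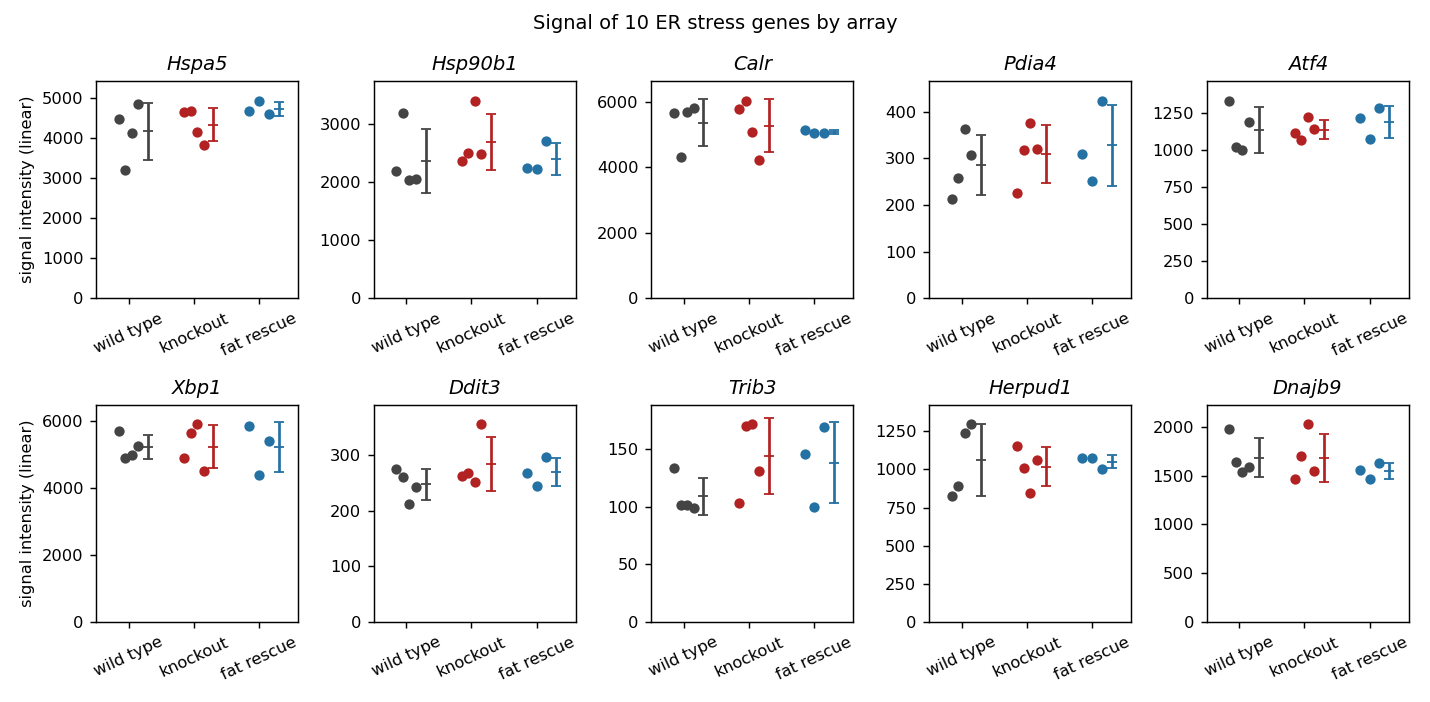
Linear signal intensity of the brightest probe set of each of the 10 genes, 1 point per array, with the mean and SD of each genotype to the right of its points (4 wild-type, 4 knockout and 3 fat rescue arrays). Every axis starts at 0, and in all 10 panels the points of the 3 genotypes overlap.

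Serpina1b, one of the genes of the secreted protease inhibitor alpha-1-antitrypsin, read 23.7, 29.1, 30.5 and 21.1 in the wild-type mice, 392, 721, 810 and 370.1 in the knockouts, and 449, 757 and 376 in the rescue mice with its brightest probe set. Every array of both lines was above every wild-type array. The log2 difference from wild type was 4.39 ± 0.28 (SE) in knockout and 4.29 ± 0.30 in fat rescue with limma (adjusted p = 1.12e-05 and 3.80e-05), against a wild-type signal too low for an exact size. Both probe sets bear the mark _x_at, given by the manufacturer to probes that may bind other transcripts, and alpha-1-antitrypsin has several near-identical genes in the mouse, so the signal may come from more than Serpina1b. Its second probe set had the same direction, at 2.92 ± 1.88 (SD, n = 4) in wild type, 634 ± 200.4 (n = 4) for the knockout and 681 ± 283 (n = 3) for the rescue. Serpina3n, an acute-phase protease inhibitor, read 2869, 2710.3, 2179 and 2302 in the wild-type mice, 5057, 4755, 4136 and 4024 in the knockouts, and 4399.8, 4356 and 3664 in the rescue mice. The gap was 0.84 ± 0.11 in knockout (limma adjusted p = 0.0141) and 0.72 ± 0.12 in fat rescue, which did not pass (adjusted p = 0.0753). Of 23 listed secreted serpins 5 were measured, and the next by its F test, Serpinf1, which encodes an anti-angiogenic serpin, did not pass (log2 -0.26 ± 0.12 in knockout, adjusted p = 0.694).

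Among the chaperones and foldases of the ER lumen, Hspa5 encodes BiP, the chaperone that holds the stress sensors inactive until unfolded protein draws it away. Its signal was 4479, 3210.1, 4122 and 4858 in the wild-type mice, 4652, 4679, 4149.8 and 3828 in the knockouts, and 4671, 4929 and 4593 in the rescue mice. The knockout arrays lay wholly inside the wild-type range, which was widened by its second array, and 2 of the 3 fat rescue arrays lay inside it as well. The log2 difference was 0.07 ± 0.12 (SE) in knockout, with a 95% confidence interval from -0.19 to 0.32, and 0.20 ± 0.13 in fat rescue, from -0.08 to 0.48 (limma adjusted p = 0.917 and 0.707). In fold terms these intervals run from 0.876 to 1.25 and from 0.948 to 1.39 times the wild-type level.

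Hsp90b1 encodes the ER-resident HSP90 chaperone, which folds a restricted set of secreted and membrane proteins. It read 2187, 3182, 2035 and 2057 in the wild-type mice, 2359, 2490.2, 3393 and 2479 in the knockouts, and 2243, 2216 and 2701 in the rescue mice. A single high array in wild type and another in knockout set the spread, and the groups overlapped. The log2 difference from wild type was 0.19 ± 0.15 in knockout (95% interval -0.14 to 0.52) and 0.03 ± 0.16 in fat rescue (-0.32 to 0.39), neither of which passed.

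Calr encodes calreticulin, the lectin chaperone that binds calcium and newly made glycoproteins, alpha-1-antitrypsin among its clients. Its arrays read 5657, 4310.1, 5703 and 5802 in the wild-type mice, 5778, 6036, 5089 and 4216 in the knockouts, and 5139, 5060.1 and 5043 in the rescue mice. The 3 fat rescue arrays were close together and in the middle of the others. The log2 difference was -0.03 ± 0.12 in knockout (95% interval -0.29 to 0.24) and -0.07 ± 0.13 in fat rescue (-0.36 to 0.22). Pdia4, a protein disulfide isomerase, ranged from 214 to 363 in wild type, 225 to 376 in knockout and 252 to 424 in fat rescue, with a log2 difference of 0.12 ± 0.20 in knockout and 0.19 ± 0.22 in fat rescue. Its within-genotype SD of 0.34 on the log2 scale was the highest of the 10 members, so its intervals are the widest of the chaperones and reach 1.47-fold in knockout and 1.59-fold in fat rescue.

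Of the transcription factors, Atf4, the effector downstream of PERK, read 1329, 1018, 999.6 and 1188 in the wild-type mice, 1114, 1065, 1221 and 1137 in the knockouts, and 1216, 1069.8 and 1278 in the rescue mice. All knockout and fat rescue arrays fell between the lowest and the highest wild-type array. The log2 difference was 0.01 ± 0.10 in knockout (95% interval -0.21 to 0.23) and 0.07 ± 0.11 in fat rescue (-0.16 to 0.31). ATF4 is set largely by translation, which these arrays do not measure.

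Xbp1, whose spliced mRNA encodes the active factor of the sensor that Ern1 encodes, read 5689, 4887, 4988 and 5249 in the wild-type mice, 4894, 5641, 5886 and 4488 in the knockouts, and 5849, 4387 and 5387 in the rescue mice. The means of the genotypes were 5203 ± 358 (SD, n = 4), 5227 ± 649 (n = 4) and 5207 ± 747 (n = 3), apart by less than 1 SD. The log2 difference from wild type was 0.00 ± 0.11 in knockout (95% interval -0.24 to 0.24) and -0.01 ± 0.12 in fat rescue (-0.27 to 0.25). The files do not say which probe sets span the spliced segment, so the spliced and unspliced forms were not separated.

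Ddit3, which encodes CHOP, read 275, 261, 212 and 244 in the wild-type mice, 262, 268, 252 and 356 in the knockouts, and 268, 245 and 297 in the rescue mice. The fourth knockout array stood above the rest, and the other arrays of the line lay among the wild-type ones. The log2 difference was 0.19 ± 0.13 in knockout (95% interval -0.09 to 0.47, adjusted p = 0.760 with limma) and 0.13 ± 0.14 in fat rescue (-0.18 to 0.43).

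Among the targets and regulators, Trib3, a pseudokinase induced by ATF4 and CHOP that feeds back on both and on insulin signalling, had the largest difference of the 10 in both lines. Its signal was 133, 102, 102 and 99.1 in the wild-type mice, 103, 170.1, 171 and 131 in the knockouts, and 146, 100 and 169 in the rescue mice. In knockout 2 arrays and in fat rescue 2 arrays were above all wild-type arrays, and the remaining arrays of both lines lay within the wild-type range. The log2 difference was 0.38 ± 0.21 in knockout, with a 95% interval from -0.06 to 0.82, and 0.32 ± 0.22 in fat rescue, from -0.16 to 0.80 (limma adjusted p = 0.711 and 0.739). These intervals still allow a level 1.77 and 1.74 times that of wild type. Its second probe set, also marked _x_at, read 0.31 ± 0.18 and 0.46 ± 0.19 and did not pass either (adjusted p = 0.790 and 0.734 over all probe sets).

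Herpud1, an ER membrane protein that assists the disposal of misfolded protein, ranged from 827 to 1294 in wild type, 847 to 1153 in knockout and 999.5 to 1077 in fat rescue. Both lines lay within the wild-type range, at -0.04 ± 0.14 and 0.01 ± 0.16 on the log2 scale. Dnajb9, a co-chaperone that returns the IRE1 sensor to its inactive state, ranged from 1537 to 1976 in wild type, 1461 to 2025 in knockout and 1467 to 1627 in fat rescue. Its difference was -0.01 ± 0.11 in knockout and -0.12 ± 0.12 in fat rescue, with a 95% interval in fat rescue from -0.37 to 0.14.

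**Figure D2:**
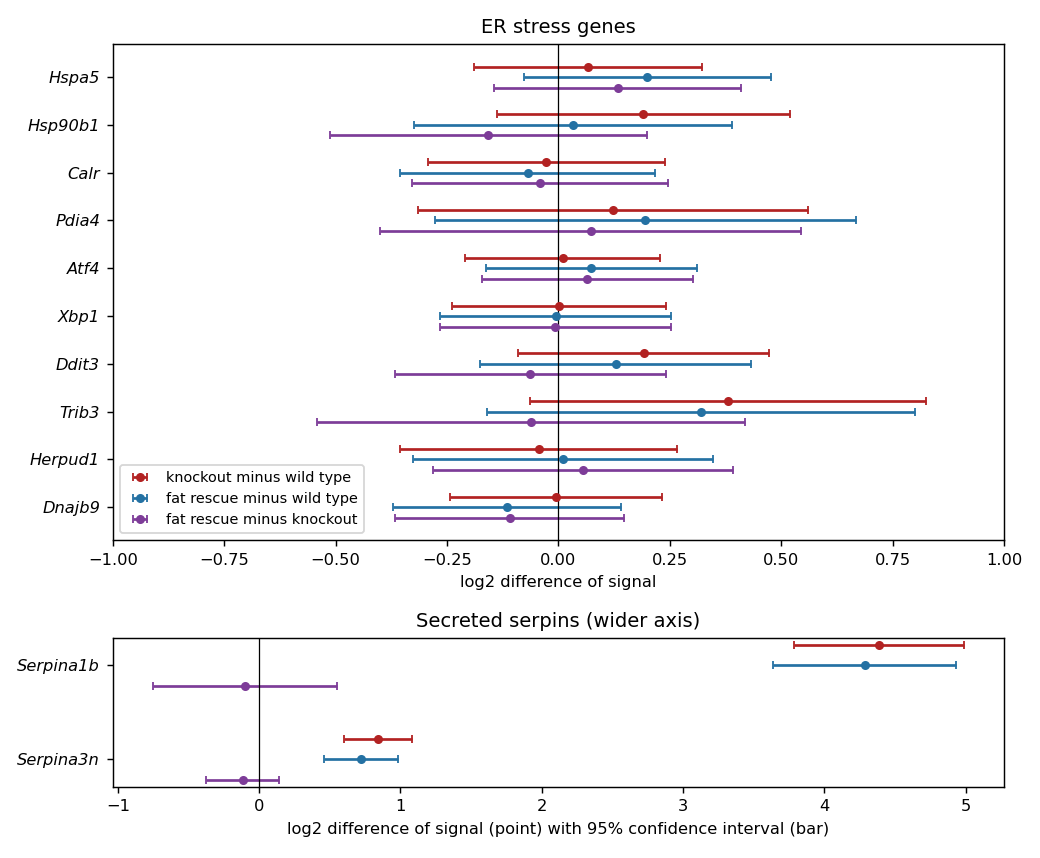
Log2 difference of signal (points) with 95% confidence intervals (bars) in the 3 comparisons, for the 10 ER stress genes above and for Serpina1b and Serpina3n below on a wider axis. All 30 intervals of the ER stress genes cross 0, while those of both serpins against wild type lie above 0.

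The differences of the members that carry an ER stress element or its variant overlapped with those of the others. The 4 with it, Hspa5, Hsp90b1, Calr and Herpud1, ran from -0.04 to 0.19 on the log2 scale in knockout (median 0.02), and the 6 without it from -0.01 to 0.38 (median 0.07). In fat rescue the ranges were -0.07 to 0.20 (median 0.02) and -0.12 to 0.32 (median 0.10). Outside the members, 12 measured genes had the ER stress element itself in their promoter window. This list was drawn up after the members' matches had been seen. In any comparison 0 of the 12 passed, while 0.0393% and 0.0157% of all genes did so against wild type in knockout and fat rescue. A higher mean than in wild type was found in 5 in knockout (41.7%) and 8 in fat rescue (66.7%). Over all 10219 measured genes with a promoter window the shares were 53.7% and 55.8%. The medians of the 12 were -0.01 and 0.07, beside 0.02 and 0.03 over those 10219 genes. The variant, counted in the same way, was in 7 measured genes, and 0 of them passed in any comparison. Of the 7, 2 had a higher mean than in wild type in each line (28.6%). The medians of the 7 were -0.12 in knockout and -0.06 in fat rescue.

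Reading all 24 probe sets singly, 22 were within the upper 60% of brightness and 2, a dim probe set of Pdia4 and of Atf4, were below it. With limma on all 45037 probe sets 0 of 24 passed in knockout against wild type (0.0178% of all probe sets did), 0 in fat rescue against wild type (0.0155%) and 0 in fat rescue against knockout (0%). At an unadjusted p under 0.05 there were 3, 2 and 0, against 6.53%, 6.68% and 4.13% of all probe sets. All 4 knockout arrays lay above all wild-type arrays in 3 of 24 probe sets, 12.5%, where 3.63% of all probe sets did not overlap and 2.28% did not overlap with the knockout higher. In fat rescue against wild type 1 of 24 did not overlap (7.23% of all probe sets, 4.55% with fat rescue higher), and in fat rescue against knockout 0 of 24 (5.24%, 2.57% with fat rescue higher).

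The 3 probe sets were each the dimmest one of their gene, and in each case the brighter probe sets of the gene overlapped. The dimmest of Hspa5 read 256, 275, 245 and 235 in the wild-type mice, 298, 361, 332 and 288 in the knockouts, and 358, 324 and 329 in the rescue mice. Both lines were above wild type in every array, by 0.34 ± 0.10 and 0.41 ± 0.11 on the log2 scale, and neither passed over all probe sets (limma adjusted p = 0.688 and 0.543). It bears the mark _x_at too. The middle probe set of Hspa5 differed by 0.06 ± 0.11 in knockout and -0.05 ± 0.12 in fat rescue. The dimmest of Xbp1 read 82.9, 90.0, 96.2 and 81.2 in the wild-type mice, 108, 129, 109.7 and 148 in the knockouts, and 85.0, 115 and 139 in the rescue mice, a knockout difference of 0.49 ± 0.18 (adjusted p = 0.708), while its 3 brighter ones all read 0.00. That of Ddit3 read from 4.9 to 43.3 in wild type, from 44.7 to 63.4 in knockout and from 17.1 to 60.6 in fat rescue, near the array medians and too low for an exact size (1.57 ± 0.59 in knockout, adjusted p = 0.708).

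Array medians, which are read from dim probe sets, were also higher in the knockout arrays, at 46.4 to 48.7 against 41.2 to 45.0 in wild type and 45.5 to 46.4 in fat rescue. When each array was centred on its median, which lowers all knockout values by 0.15 against wild type and fat rescue values by 0.10, the dimmest Hspa5 probe set overlapped in knockout (0.19 ± 0.12) and stayed apart in fat rescue (0.31 ± 0.13). The dimmest Xbp1 probe set still did not overlap in knockout (0.34 ± 0.18) and that of Ddit3 did. After centring, 1 of 24 probe sets did not overlap with wild type in each line, beside 6.02% and 7.58% of all probe sets. The use of centring on single probe sets was added after the data had been seen.

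**Figure D3:**
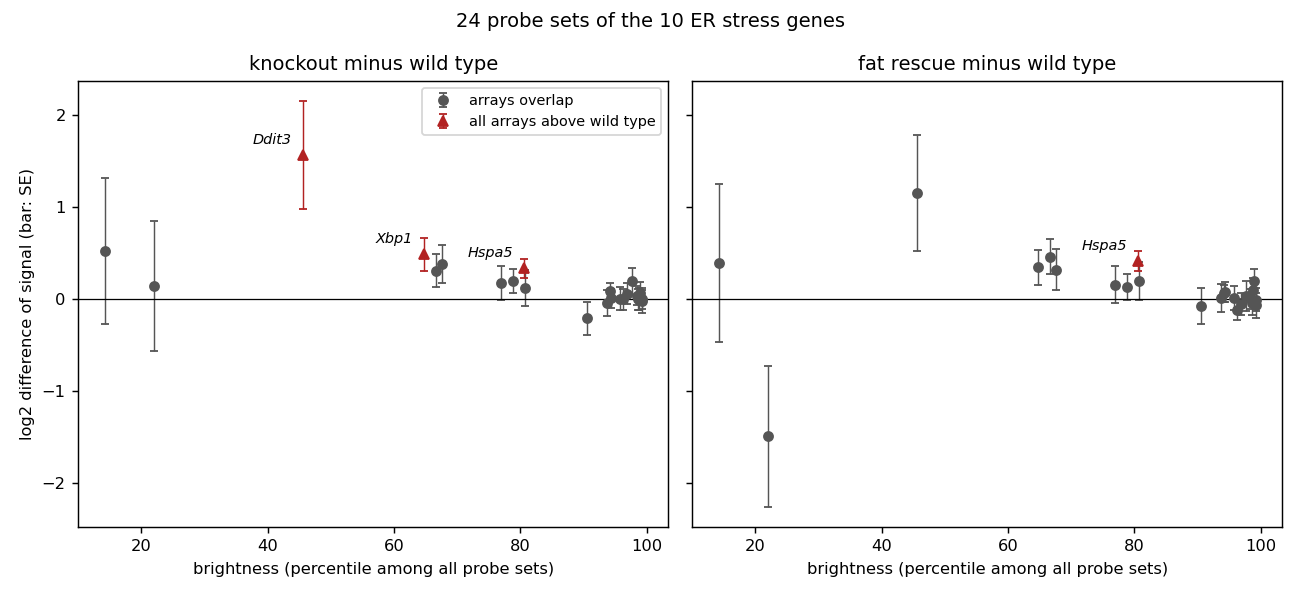
Log2 difference from wild type (points, bars are SE) of the 24 probe sets against their brightness, as the percentile among all probe sets, for knockout (left) and fat rescue (right). Triangles mark probe sets whose arrays all lie above the wild-type arrays, 3 on the left and 1 on the right, at brightness percentiles from 45.6 to 80.6.

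Probe sets of the same gene did not always vary together from array to array. Over 17 pairs of probe sets of the same member above the brightness limit, with genotype means removed, Pearson's r across the 11 arrays ran from -0.48 to 0.92 with a median of 0.27, and 5 were negative. By permutation, 4 pairs passed an adjusted p of 0.05 with r and 2 with Spearman's rho; those with r were 2 pairs of Calr and 2 of Xbp1. For example, the 2 brightest probe sets of Hspa5 had r = -0.46 (permutation p = 0.155, adjusted p = 0.292) and rho = -0.50 (permutation p = 0.122, adjusted p = 0.296), with r = -0.36 without the 2 arrays farthest from the median. The 2 brightest of Calr had r = 0.65 (permutation p = 0.0298, adjusted p = 0.101) and rho = 0.65 (permutation p = 0.0364, adjusted p = 0.124), which did not pass, with r = 0.52 without 2 arrays. The brightest and the dimmest of Calr had r = 0.90 (permutation p = 0.00168, adjusted p = 0.0143) and rho = 0.75 (permutation p = 0.0104, adjusted p = 0.0587), and r = 0.61 without 2 arrays. These pairs were examined after the data had been seen.

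Within the genotypes, the brightest probe set of Hspa5 moved with that of Calr and not detectably with those of the other members. The middle probe set of Hspa5 had r = -0.46 with the brightest (permutation p = 0.155, adjusted p = 0.292). It was not tested against the other members. Of 9 relations of Hspa5 with the other members over the 11 arrays, genotype means removed, only that with Calr passed (r = 0.89, permutation p = 0.00068, adjusted p = 0.00612; rho = 0.85, permutation p = 0.00174, adjusted p = 0.0157), and r was 0.89 without the 2 arrays farthest from the median. Hsp90b1 ran the other way and did not pass (r = -0.71, permutation p = 0.0293, adjusted p = 0.132; rho = -0.59, permutation p = 0.0636, adjusted p = 0.286), with r = -0.36 without 2 arrays. The other 7 values of r lay between -0.36 and 0.42. The genes most like Hspa5 by this measure, among 12708, were Pebp1 (r = 0.95), Hid1 (0.94), Def8 (0.94), Agps (0.93) and Mtor (0.93), beside a median of 0.03 over all genes. These values rest on 11 arrays that share their scaling, and the genes were picked as the highest.

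Markers of the fat cells themselves moved with the brightest probe sets of Hspa5 and Calr. The middle probe set of Hspa5, at r = -0.46 with the brightest, was not tested against these markers. The summed signal of 7 adipocyte markers, of which Fabp4 and Adipoq are the brightest, ranged from 74139 to 100369 in wild type, from 68467 to 92284 in knockout, and from 73670.3 to 89642 in fat rescue. With genotype means removed, Calr followed this sum over the 11 arrays at r = 0.90 (permutation p = 8e-05, adjusted p = 0.0008 over 10 relations; rho = 0.91, permutation p = 0.00026, adjusted p = 0.0026) and Hspa5 at r = 0.87 (permutation p = 0.0003, adjusted p = 0.0015; rho = 0.80, permutation p = 0.00466, adjusted p = 0.0233). Without the 2 arrays farthest from the median r was 0.79 and 0.70. Hsp90b1 again ran the other way and did not pass (r = -0.72, permutation p = 0.0244, adjusted p = 0.0814; rho = -0.52, permutation p = 0.107, adjusted p = 0.356), with r = -0.80 without 2 arrays. The other 7 members lay between -0.54 and 0.48, none of them passing. Removing the genotype means makes these p-values approximate, and the relation was examined after the data had been seen. In a bulk sample fewer fat cells and less of a transcript per fat cell cannot be told apart.

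**Figure D4:**
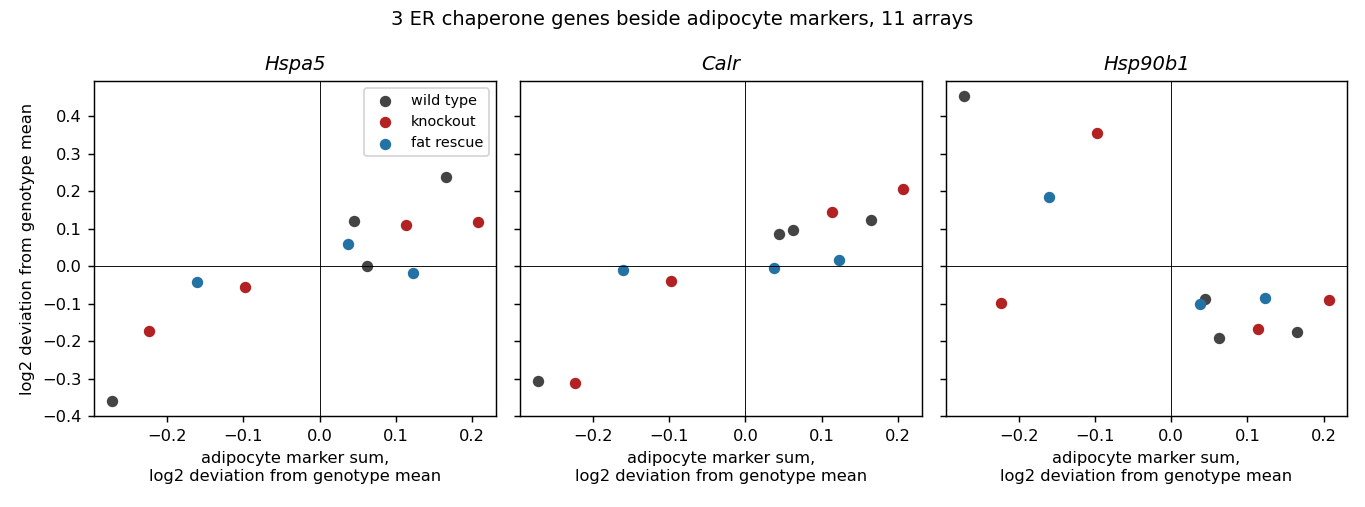
Log2 deviation from the genotype mean of the brightest probe sets of Hspa5, Calr and Hsp90b1 (vertical axis) against that of the summed adipocyte markers (horizontal axis), 1 point per array, coloured by genotype. Hspa5 and Calr climb with the markers (r = 0.87 and 0.90), and Hsp90b1 descends (r = -0.72, which did not pass).

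Across the 7 arrays of both lines in which Serpina1b is high, no relation of a member with either serpin passed. Of 20 relations of the 10 members with Serpina1b or Serpina3n 0 passed by exact permutation (smallest adjusted p = 0.333), and r ran from -0.81 to 0.70 with a median of -0.02 and 11 negative values. The relation with the lowest p for r was that of Ddit3 with Serpina1b (r = -0.69, exact permutation p = 0.0222, adjusted p = 0.333; rho = -0.86, exact permutation p = 0.0238, adjusted p = 0.227), and r was -0.48 without the 2 arrays farthest from the median. For rho it was that of Calr with Serpina3n (rho = 0.89, exact permutation p = 0.0123, adjusted p = 0.227), with r = 0.70 (exact permutation p = 0.0738, adjusted p = 0.454) and 0.91 without 2 arrays. The lowest r was that of Pdia4 with Serpina3n (r = -0.81, exact permutation p = 0.0333, adjusted p = 0.333), and -0.28 without 2 arrays. For Hspa5 r was 0.24 with Serpina1b (exact permutation p = 0.621, adjusted p = 0.731; rho = 0.46, exact permutation p = 0.302, adjusted p = 0.659), and 0.43 without 2 arrays. The 4 knockout and 3 fat rescue arrays are too few for values within each line, and the wild-type arrays, which lie apart in Serpina1b, were not pooled with them.

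No other gene of the pathway passed. Of 72 other listed genes of the response and of the secretory pathway, 69 were on the array and 68 were measured, and 0 passed in each of the 3 comparisons with limma. At an unadjusted p under 0.05 with limma the count of 68 was 4 for the knockout and 4 for the rescue mice, each against wild type. Between the lines it was 3. Of all genes 7.3%, 8.09% and 3.81% did so in these comparisons. The groups did not overlap in 2 of 68 genes in knockout (2.94%, beside 3.84% of all genes), 10 in fat rescue against wild type (14.7%, beside 9.24%) and 4 between the lines (5.88%, beside 4.93%). The median log2 difference of the 68 was -0.02 in knockout and -0.00 in fat rescue, beside 0.02 and 0.03 over all genes. A higher mean than in wild type was found in 29 and 33 of them, beside 53.7% and 55.7% of all genes.

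By role, the 6 stress sensors and site proteases had medians of 0.07 in knockout and 0.05 in fat rescue. Eif2ak3, the PERK kinase, read 0.16 ± 0.10 and 0.21 ± 0.10, and Ern1, the IRE1 sensor, 0.18 ± 0.12 and 0.25 ± 0.13, none of which passed (limma adjusted p from 0.624 to 0.762). The 16 other chaperones and foldases had medians of 0.02 and 0.01. Among them Sdf2l1, a partner of BiP and a sensitive target of the response in cultured cells, read 65.9, 96.0, 113 and 119 in the wild-type mice, 124, 94.8, 107 and 99.8 in the knockouts, and 126.5, 143 and 137 in the rescue mice. All 3 fat rescue arrays were above the 8 others, by 0.50 ± 0.20 against wild type, without passing (limma adjusted p = 0.579). P4hb, the main protein disulfide isomerase, read -0.13 ± 0.09 in knockout and 0.05 ± 0.10 in fat rescue.

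The 13 genes of ER-associated degradation had medians of -0.06 and -0.07. In each line 11 of them had a lower mean than in wild type, while 53.7% and 55.7% of all genes had a higher one. Ube2g2, a ubiquitin-conjugating enzyme of this pathway, read -0.23 ± 0.08 and -0.16 ± 0.08, and Syvn1, its ubiquitin ligase HRD1, -0.24 ± 0.10 and -0.12 ± 0.11, without passing. The 15 genes of the PERK and ATF4 arm had medians of -0.10 and -0.11. Atf3, a stress factor of this arm that is also an immediate early gene, read 69.8, 105, 82.1 and 75.7 in the wild-type mice, 204, 107, 87.9 and 140.1 in the knockouts, and 113, 205 and 223 in the rescue mice. The 3 fat rescue arrays were above all wild-type arrays (log2 1.08 ± 0.29, limma adjusted p = 0.3996), and the knockout arrays overlapped them (0.64 ± 0.27, adjusted p = 0.682). Immediate early genes, which answer to tissue handling, were summed over 10 genes with Atf3 among them, and the sum was 4931 to 5678 in wild type, 5796 to 6274 in knockout and 6178 to 7100.5 in fat rescue, with no overlap between wild type and either line. Of the 9 measured 8 had a higher mean than wild type in knockout and 9 in fat rescue, beside 53.7% and 55.7% of all genes. With limma 0 of the 9 passed, and 5 had an unadjusted p under 0.05 in each line, beside 7.3% and 8.09% of all genes. The part of immediate early genes in the Atf3 values was not tested. Atf5, a factor that ATF4 induces, read -0.12 ± 0.09 in knockout and 0.20 ± 0.09 in fat rescue.

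The 18 genes of translocation and export had medians of -0.01 and 0.03. Mcfd2, a subunit of the cargo receptor that carries coagulation factors and alpha-1-antitrypsin out of the ER, read 1584, 1608, 1831 and 1769.8 in the wild-type mice, 1377, 1326, 1389.8 and 1341 in the knockouts, and 1485, 1634 and 1595 in the rescue mice. All 4 knockout arrays were below all wild-type and all fat rescue arrays. The difference from wild type was -0.32 ± 0.07 in knockout, and over all genes it did not pass (limma adjusted p = 0.362), while fat rescue stood at -0.11 ± 0.08. With arrays centred on their median Mcfd2 passed in knockout (log2 -0.47, limma adjusted p = 0.0296). Spcs3, a subunit of the signal peptidase, read 0.10 ± 0.09 and 0.29 ± 0.10.

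**Figure D5:**
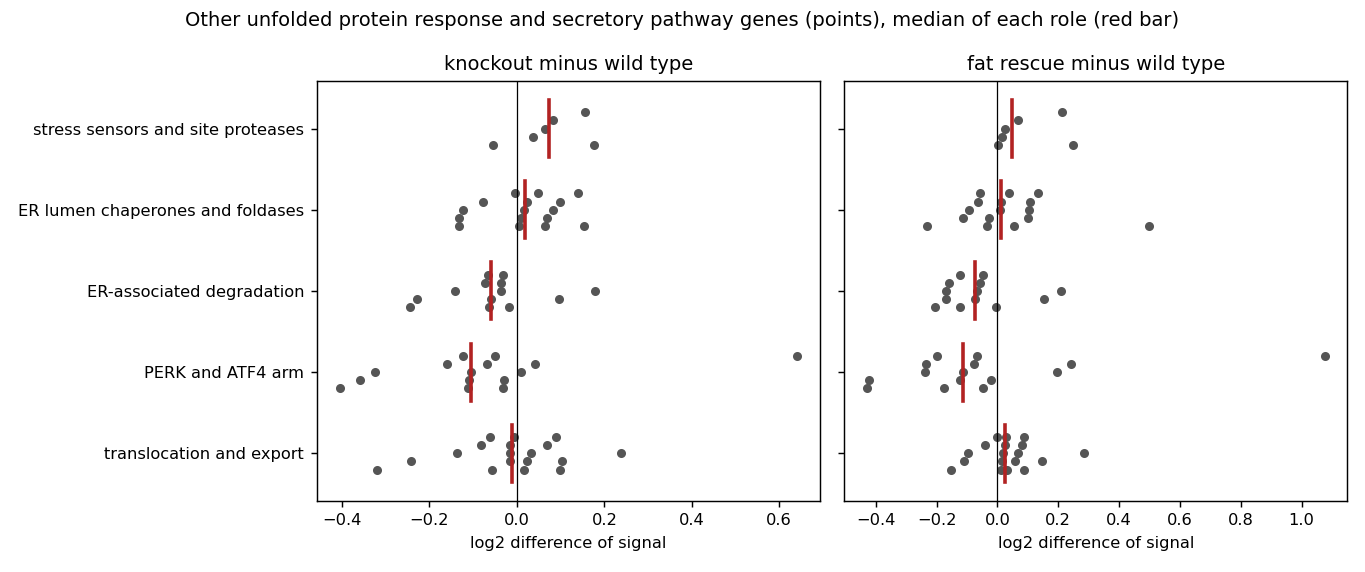
Log2 difference from wild type of 68 other genes of the response and the secretory pathway, 1 point per gene by role, with the median of each role as a red bar, for knockout (left) and fat rescue (right). None of the points passed, and the medians lie between -0.11 and 0.07; the highest point in both panels is Atf3.

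Adipocyte markers were bright in all 11 arrays, as the tissue label has it, and all arrays had an equal trimmed mean. All 7 adipocyte markers had a lower mean in knockout than in wild type (median log2 -0.22) and 6 of 7 in fat rescue (median -0.11). Of all genes, 53.7% and 55.7% had a higher mean than in wild type. With limma 0 of the 7 passed, and 3 and 0 had an unadjusted p under 0.05, beside 7.3% and 8.09% of all genes. The part of adipocyte markers in the Hspa5 and Calr values was not tested. The first wild-type and the first fat rescue array lay far from the others along the leading principal component (27.3% of variance), and without both arrays 0 of 10 members passed in every comparison, with medians of 0.08, 0.07 and -0.06. Among other cell types all 10 macrophage markers had higher means in both lines (summed signal 12260.4 to 17450 in wild type, 13625 to 26337 in knockout, 17612 to 21418 in fat rescue), and none passed. The knockout sums were 26337, 16777, 13625 and 15435, so only the first knockout array lay above the wild-type range. The fat rescue sums lay above all wild-type ones. Arrays did not overlap with wild type in 0 of these 10 markers in knockout and 5 in fat rescue (50%), beside 3.84% and 9.24% of all genes. Markers of plasma and B cells, which have a large ER, overlapped at 324 to 1609 in wild type, 702 to 1517 in knockout and 594 to 1837 in fat rescue. Hepatocyte and epididymis marker sums were 172.9 to 301 and 58.6 to 106 over all arrays, and no list had a marker at 0. Alb, the brightest hepatocyte marker, stood at -0.50 ± 0.19 in knockout and -0.67 ± 0.21 in fat rescue without passing (limma adjusted p = 0.665 and 0.460). Mesothelial sums were 2818 to 4683, 4119 to 5397 and 5018 to 5613, with fat rescue above all wild-type arrays, and endothelial and stromal sums overlapped. RNA integrity, read as beta-actin signal near the 3′ end over that near the 5′ end, gave ratios of 1.65 to 1.83 in wild type, 1.53 to 1.69 in knockout and 1.47 to 1.56 in fat rescue. Fat rescue lay below all wild-type arrays in this ratio. The same ratio for Gapdh overlapped, at 0.9179 to 1.0291 in wild type, 0.8645 to 1.0006 in knockout and 0.9181 to 0.9496 in fat rescue. The part of cell make-up and RNA integrity in the values of the members was not tested.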

How the data were processed

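Total RNA of 11 samples was labelled and hybridized to 1 one-colour Affymetrix array each. The deposited table holds signal intensity per probe set, deposited by the authors on a linear scale and with an equal trimmed mean in every array, as its values show; per the submitters' processing notes it came from GCOS 1.3 and MAS5. It holds no detection calls. A single 0 was set to the smallest positive value, 0.1, and log2 was taken; array medians differed by 0.24, under the limit of 0.5 for further normalization. Probe sets in the brightest 60% on average were kept (27022), and the brightest with 1 gene symbol represented each gene (12709). All arrays entered 1 fit with genotype as the only factor in limma 3.58.1 (eBayes with trend, R 4.3.3), two-sided, Benjamini-Hochberg over all genes at 0.05. A second fit took all 45037 probe sets. The labels give no batch. The step was tested on simulated data with planted differences larger than any gene-level difference of the members, so that test does not bear on differences of their size. Permutation tests (100000 resamples, or exact) used scipy 1.17.1. Replicate numbers were not taken as pairs: over 10 same-numbered pairs the correlation of deviations ran from -0.14 to 0.35, and 4 exceeded 0.1. Those were all pairs numbered 1 (0.14, 0.35 and 0.19) and the pair numbered 4 (0.23). Whether arrays of the same number shared a run was not tested.

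The members and lists were chosen with earlier results of these data known. Genes named are the members, Serpina1b and Serpina3n, the 2 of each role with the smallest F-test p, the 3 serpins likewise, the 5 most like Hspa5, and the 2 brightest of a marker list where named; Ddit4 was named after its values were seen. Gene symbols came from the platform annotation, and promoters from RefSeq. The number of arrays limits the precision.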

Additional observations from a re-analysis of the deposited data

Results flagged for a closer look

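In 24 groups of 4 arrays, those of the 10 members and of Serpina1b and Serpina3n in wild type and knockout, 5 had an array that stood far from its neighbours by Dixon's criterion; chance gives about 1 in 20 groups. Hsp90b1 had such an array in both genotypes, at 3182 in wild-type array 2, where the next was 2187, and at 3393 in knockout array 3, where the next was 2490.2. Calr was low in the same wild-type array, at 4310.1, where the next was 5657. Ddit3 was high in knockout array 4, at 356, beside 268. Trib3 was high in wild-type array 1, at 133, beside 102. The adipocyte marker sum was lowest of its genotype in wild-type array 2, at 74139, and next to lowest in knockout array 3, at 74709.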

How the results depend on the processing

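Across 23 alternatives (normalization, filter, pseudocount, probe-set choice, array weights, replicate block, samples left out) 0 of 10 members passed in any comparison, and the smallest adjusted p of a member with limma was 0.445. Of 690 member differences 68 changed sign, in 19 of the 30; the cause was not tested, except that centring lowers every value of both lines. Over all genes the count that passed, 5 in knockout and 2 in fat rescue against wild type, ran from 1 to 14 and from 1 to 8. Replicate numbers were not taken as pairs in the main fit. With the replicate block 0 members passed, Hsp90b1 stood at -0.026 in fat rescue against wild type and Ddit3 at 0.0495 in fat rescue against knockout. With arrays centred on their median the members' median in knockout was -0.11, Hspa5 read -0.083, Pdia4 -0.027, Atf4 -0.14 and Xbp1 -0.15, in fat rescue Hsp90b1 -0.0695, Atf4 -0.029 and Herpud1 -0.091, and between the lines Calr 0.0052 and Xbp1 0.0397. Under that setting 1 other gene of the pathway passed in knockout (Mcfd2, -0.47, limma adjusted p = 0.0296). Quantile normalization gave Calr 0.033 and Dnajb9 0.0415 in knockout, Calr 0.0003 and Xbp1 0.065 in fat rescue. The mean of probe sets gave Calr 0.0019 in knockout, Xbp1 0.11 and Herpud1 -0.032 in fat rescue, and Trib3 0.047 between the lines. Array weights gave Dnajb9 0.027 in knockout, Xbp1 0.0046 and Herpud1 -0.074 in fat rescue. Without wild-type array 1 and fat rescue array 1, Calr read 0.0016, Pdia4 -0.0081 and Dnajb9 0.0735 in knockout, Herpud1 -0.12 in fat rescue, and 1 other pathway gene passed in knockout (Ddit4, an ATF4 target, -0.90, adjusted p = 0.0362); it also passed without wild-type replicate 1 alone (adjusted p = 0.0235). With all arrays Ddit4 stood at -0.36 ± 0.39 (adjusted p = 0.843), its wild-type arrays reading 305, 1339, 1388 and 1342.

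Leaving out each array in turn, 0 to 1 other pathway genes passed in knockout. The knockout differences that changed sign ran from -0.054 to 0.15 for Hspa5, -0.13 to 0.077 for Calr, -0.0081 to 0.27 for Pdia4, -0.048 to 0.089 for Atf4, -0.059 to 0.071 for Xbp1, -0.16 to 0.0597 for Herpud1 and -0.098 to 0.0735 for Dnajb9. Those of fat rescue ran from -0.059 to 0.18 for Hsp90b1, -0.0063 to 0.37 for Pdia4, -0.10 to 0.11 for Xbp1 and -0.10 to 0.12 for Herpud1. Between the lines they ran from -0.15 to 0.027 for Calr, -0.13 to 0.25 for Pdia4, -0.10 to 0.11 for Xbp1, -0.13 to 0.0495 for Ddit3, -0.22 to 0.15 for Trib3 and -0.029 to 0.12 for Herpud1. Signals near the array medians are the least certain.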
